A study of Mus musculus with 12 samples.

Results

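The nitric oxide and cGMP signalling genes were 10 genes taken by symbol from the count table: the guanylate cyclase subunits Gucy1a1, Gucy1a2 and Gucy1b1, the synthases Nos1 and Nos3, the kinases Prkg1 and Prkg2, and the phosphodiesterases Pde5a, Pde9a and Pde2a. They made up 10 of the 54232 genes in the table, and all 10 were among the 18016 genes with enough counts to be tested. The list was drawn up by role with earlier results of the genotype comparison known, so their mutant and wild-type values stand as a description and carry no test. Cortex RNA of 12 mice was sequenced from mRNA libraries, 1 library per mouse. The mutant mice were homozygous for the Y446C allele of Tbl1xr1 (6 mice, 3 females and 3 males), and the wild-type mice made up the other genotype (6 mice, 3 females and 3 males). All mice were of the C57BL/6J strain, were 12 weeks old and had no treatment named in the labels. The series presents the homozygotes as a model of Pierpont syndrome, and Tbl1xr1 encodes a subunit of the NCoR/SMRT corepressor complex.

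Nitric oxide is made from arginine by the nitric oxide synthases and diffuses to soluble guanylate cyclase, a heme protein built from an alpha and a beta subunit, which then makes cyclic GMP. Cyclic GMP acts through the cGMP-dependent protein kinases and through cyclic nucleotide-gated channels, and phosphodiesterases end the signal. In the cortex the pathway is known for its place in synaptic plasticity and in the control of blood flow, with Nos1 concentrated in interneurons and Nos3 in endothelial cells.

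The results turned on the cyclase genes, so the sequence upstream of each is shown, from RefSeq on GRCm38.p6, to set the alpha-2 gene beside the 2 genes whose levels moved together. All 3 symbols matched a RefSeq entry. Gucy1a1 and Gucy1b1 are neighbours on the minus strand of chromosome 3, with 17737 bases between them, and Gucy1a2 lies on the plus strand of chromosome 9. The stretches are chr9:3532099-3532348 on the plus strand for Gucy1a2, chr3:82145790-82145900 on the minus strand for Gucy1a1 and chr3:82074712-82074961 on the minus strand for Gucy1b1. For Gucy1a1, 139 of the 250 bases before the RefSeq start lay inside the GENCODE gene and are left off. Capitals mark matches to GGGCGG, known as the GC box. They also mark matches, on either strand, to the letters CCAAT.
Gucy1a2: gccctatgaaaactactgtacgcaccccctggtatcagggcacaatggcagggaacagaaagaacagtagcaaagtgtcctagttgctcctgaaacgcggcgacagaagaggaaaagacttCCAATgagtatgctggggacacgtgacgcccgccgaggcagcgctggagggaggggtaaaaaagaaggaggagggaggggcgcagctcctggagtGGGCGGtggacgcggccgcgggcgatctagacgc
Gucy1a1: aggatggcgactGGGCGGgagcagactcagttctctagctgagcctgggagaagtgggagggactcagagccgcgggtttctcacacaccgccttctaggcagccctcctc
Gucy1b1: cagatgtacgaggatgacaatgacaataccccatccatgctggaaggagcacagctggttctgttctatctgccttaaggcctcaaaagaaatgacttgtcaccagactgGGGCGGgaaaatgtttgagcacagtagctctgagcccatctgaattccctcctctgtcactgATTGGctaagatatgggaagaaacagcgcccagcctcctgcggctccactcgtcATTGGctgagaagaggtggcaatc
Each of the 3 windows held 1 match to GGGCGG, which ended 29 bases before the start in Gucy1a2, 233 in Gucy1a1 and 135 in Gucy1b1. Searched on both strands in windows of 250 bases, GGGCGG was present in 32.7% of 32851 RefSeq promoters and CCAAT in 33.8%. Gucy1a2 held 1 CCAAT, from 129 to 125 bases before its start, Gucy1b1 held 2 on the other strand, and Gucy1a1 held none. None of the 3 windows held the letters TATAAA (present in 12.4% of promoters) or AGGTCA, a nuclear receptor half-site (14.0%). GC content was 59.6% for Gucy1a2, 64.0% for Gucy1a1 and 51.2% for Gucy1b1, against a median of 52.4%. The number of CG pairs was 17, 12 and 5 in the same order, against a median of 6. For Gucy1a1 both values are of the full window of 250 bases, including the 139 bases that are not shown. These matches are descriptions of letters in a window and do not show binding.

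Tbl1xr1 itself was detected in every library, with 90.7 to 97.9 CPM in mutant mice and 92.7 to 114 CPM in wild-type mice. CPM is a gene's counts per 1000000 counts of the library, on totals scaled by TMM. Counts carry no base calls, so they do not check the Y446C genotype. Totals of gene counts ran from 21238427 to 32669138 in 11 libraries, but female mutant 3 held 3748515. In that library 31.6% of counts were mitochondrial, against 5.23% to 10.4% elsewhere, and 17349 genes had a count, against 24346 to 26012. Fold changes of the members are therefore given with and without female mutant 3. A count of 0 allows up to 3 counts, which is 1.16 CPM in female mutant 3 and 0.0861 to 0.137 CPM elsewhere (counting error only). Markers of cortical excitatory neurons were abundant, with summed levels of 2312 to 3889 CPM in mutant and 3083 to 3721 CPM in wild-type libraries. Markers of striatal neurons were present too. Their sum was 456 to 1266 CPM in mutant and 715 to 2406 CPM in wild-type libraries. All 12 had a log2 fold change below 0 (median -0.77, and 0 of 12 passed by edgeR). Without female mutant 3 the mutant sums were 456 to 1164 CPM. None of the 12 was at 0 in any library.

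Per unit of length, the cyclase subunits Gucy1b1 and Gucy1a1 were the most abundant members, and Pde2a had the fewest counts. Over the 11 libraries without female mutant 3, Gucy1b1, the shared beta subunit, had 47.9 ± 4.71 CPM per kilobase of exon (SD, n = 11). Gucy1a1, the alpha-1 subunit, had 15.1 ± 1.62 CPM per kilobase, and Nos1, the neuronal synthase, had 9.17 ± 1.63. On this scale the libraries of these 3 genes did not overlap with each other or with those of the remaining genes. Pde9a had 4.58 ± 0.438, Gucy1a2, the alpha-2 subunit, 3.41 ± 0.544 and Prkg2 3.17 ± 0.473 CPM per kilobase, with libraries of neighbouring genes overlapping. Nos3 (1.604 ± 0.232), Pde5a (1.595 ± 0.349) and Prkg1 (1.17 ± 0.141 CPM per kilobase) formed a lower group whose libraries also overlapped. Pde2a had 0.178 ± 0.0506 CPM per kilobase. With all 12 libraries Prkg2 passed Gucy1a2 and Pde5a passed Nos3. Per kilobase of the longest transcript, Nos1 (7.27 to 13.1 in the 11 libraries) overlapped with Pde9a (6.73 to 9.48) and with Gucy1a2 (5.19 to 8.58). On that scale, over 12 libraries, Gucy1a2 was the fifth, Prkg2 the sixth, Prkg1 the eighth and Nos3 the ninth.

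**Figure D1:**
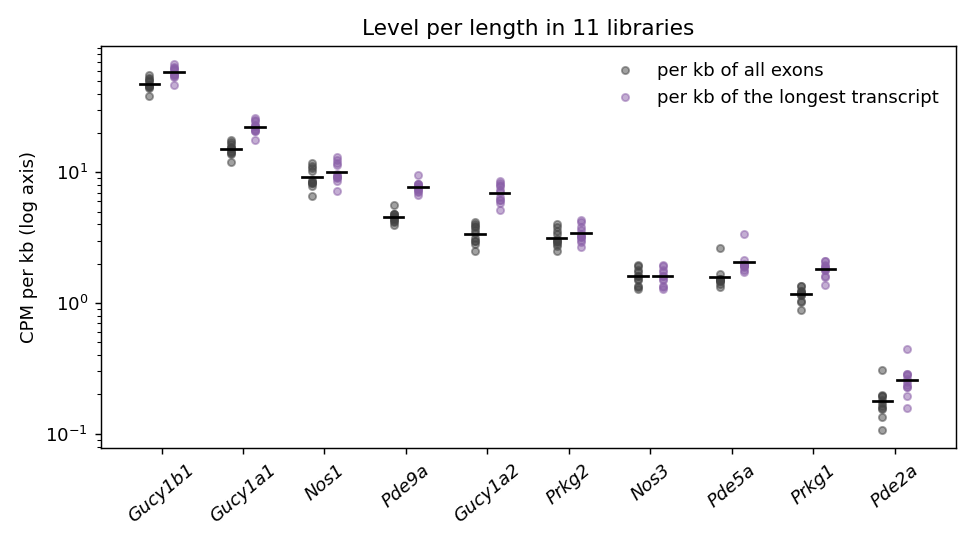
CPM per kilobase on a log axis for the 10 genes, in the 11 libraries without female mutant 3. Each point is 1 library, black bars are means, grey uses all exon bases and purple the longest transcript. Gucy1b1 and Gucy1a1 stand apart at the top and Pde2a at the bottom on both scales, and Nos1 stands apart only per kilobase of all exons.

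The level of Pde2a is uncertain. In GENCODE M21, 3955 of its 6149 exon bases (64.3%) are shared with Gm45837, another gene on the same strand, and Gm45837 had 0 counts in all 12 libraries. How the counting treated reads that fall in both genes was not tested. Other members share exon bases with genes on the opposite strand: Nos3 shares 294 with Atg9b and 1040 with Gm15587, Nos1 shares 268 with Gm26995, Pde9a shares 157 and 138 with 2 antisense genes, and Pde5a shares 55 with 4930447N08Rik. Whether the counting used strand is not stated, and reads of these partners cannot be told apart from the members'. Atg9b had 1.16 to 3.67 CPM and Gm15587 at most 0.865 CPM, against up to 8.09 CPM for Nos3.

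In the comparison of mutant with wild-type cortex, Gucy1a2 was the member whose groups separated. Of the 10 members, 1 had all 6 mutant libraries below all 6 wild-type libraries, where 0.294% of the 18016 tested genes did. None had all mutant libraries above, where 0.144% did. Without female mutant 3 the counts of members were the same, against 0.599% of genes below and 0.483% above. By edgeR 0 of 10 members passed an adjusted p of 0.05, against 0.00555% of tested genes, and 2 of 10 (Gucy1a2 and Prkg1) had an unadjusted p under 0.05, against 3.96%. Gucy1a2 was called by DESeq2 (0.161% of genes called), by DESeq2 without female mutant 3 (0.287%) and by limma-voom with library weights (0.122%). No member was called by limma-voom without weights (0.00555%), or, without female mutant 3, by edgeR (0.0108%) or by limma-voom with weights (0.0217%). With the striatal marker mean as a term edgeR called 0 of 10 (0% of genes, and 0.00542% without female mutant 3). Because the list was chosen on this contrast, nothing is read from these counts. The median log2 fold change was 0.02 over the members (4 lower, 6 higher) and -0.01 over all tested genes (52.4% lower). When totals alone set the scale, the medians were -0.07 over the members (6 lower) and -0.08 over all genes.

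**Figure D2:**
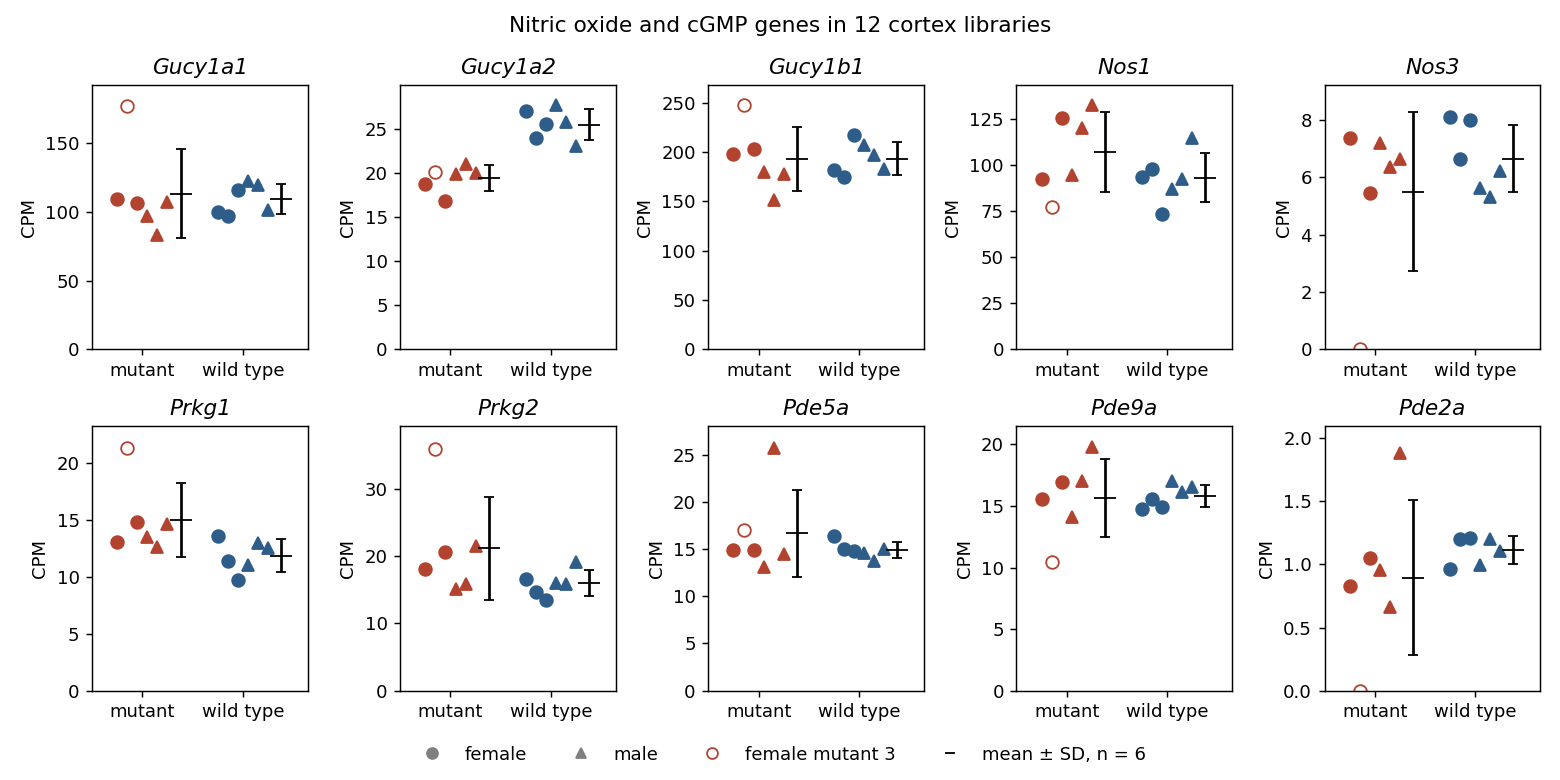
CPM of the 10 genes in 12 libraries, mutant left of wild type. Circles are females, triangles males, the open circle is female mutant 3, and bars show mean ± SD (n = 6). The Gucy1a2 groups do not overlap, at 16.8 to 21.0 CPM in mutants and 23.0 to 27.7 CPM in wild type, and female mutant 3 is at the edge of several other panels.

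Gucy1a2 encodes the alpha-2 subunit, which pairs with the beta subunit and is known to be held at synaptic membranes. In females it had 18.8, 20.1 and 16.8 CPM in mutants, against 26.99, 23.9 and 25.5 CPM in wild type. In males it had 19.9, 21.0 and 20.0 CPM in mutants, against 27.7, 25.7 and 23.0 CPM in wild type. The lowest wild-type library stood above the highest mutant library, and female mutant 3 lay inside the range of the other mutants. These values rest on 437 to 754 counts in 11 libraries and on 52 in female mutant 3. As a log2 fold change this was -0.40 (SE 0.08), and -0.41 (SE 0.07) without female mutant 3. It was -0.47 (SE 0.12) in females and -0.33 (SE 0.11) in males. With each of the 12 libraries left out in turn it ran from -0.44 to -0.36. In bulk tissue, fewer cells that express the gene and less RNA per cell cannot be told apart.

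Among 14 lists of markers that were summed, the astrocyte sum stood out with separate ranges by genotype. Each of its 5 markers taken alone had overlapping groups, unlike Gucy1a2. Their sum was 1202 to 1394 CPM in mutant and 1011 to 1171 CPM in wild-type libraries, with 4 of 5 markers higher, a median log2 fold change of 0.22 and none at 0. By edgeR 0 of 5 passed, and Aldh1l1 had a log2 fold change of -0.25. Their part in the Gucy1a2 difference was not tested. For the striatal markers a value was at hand: with their mean as a term, the Gucy1a2 difference was -0.39 (SE 0.10) over 12 libraries and -0.41 (SE 0.09) without female mutant 3. Inhibitory neuron markers summed to 821 to 1086 CPM in mutant and 946 to 1151 CPM in wild-type libraries, with 4 of 7 markers lower, a median log2 fold change of -0.20 and none at 0. These ranges overlapped, mostly through female mutant 3. Without it the mutant sums were 821 to 945.8 CPM, against 945.6 to 1151 CPM in wild type, and still overlapped at that edge. Endothelial markers summed to 217 to 259 CPM in mutant and 231 to 267 CPM in wild-type libraries.

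The other cyclase subunits had overlapping groups over both sexes. Gucy1b1 had 198, 248 and 203 CPM in female mutants, against 181, 174 and 217 CPM in female wild type. In males it had 179, 151 and 178 CPM in mutants, against 207, 197 and 183 CPM in wild type. Female groups overlapped, whereas each male mutant was below each male wild type. Of the 10 members, 2 (Gucy1a2 and Gucy1b1) had male groups apart in this direction, where 6.62% of tested genes did. The log2 fold change of Gucy1b1 was -0.02 (SE 0.10), and -0.08 (SE 0.08) without female mutant 3.

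Gucy1a1 had 109, 177 and 106 CPM in female mutants, against 100.2, 97.0 and 116 CPM in female wild type. In males it had 97.3, 83.4 and 107 CPM in mutants, against 122, 119 and 101 CPM in wild type. The groups overlapped in both sexes, and the 177 CPM belonged to female mutant 3. Its log2 fold change was 0.03 (SE 0.15), and -0.12 (SE 0.09) without that library, so the sign turned.

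Nos1, which makes nitric oxide in neurons, had 92.6, 77.4 and 125 CPM in female mutants, against 93.7, 97.9 and 73.6 CPM in female wild type. In males it had 94.8, 120.3 and 132 CPM in mutants, against 87.2, 92.3 and 115 CPM in wild type. The groups overlapped in both sexes, and 3 mutant libraries were above all wild-type libraries. Of these, the 120.3 CPM was that of male mutant 10, which held markers of the cerebellum (Gabra6 61.5 CPM, against at most 3.64 elsewhere). The part of cerebellar RNA in this Nos1 value was not tested. The log2 fold change was 0.20 (SE 0.13), and 0.27 (SE 0.11) without female mutant 3. With the striatal marker mean as a term it was 0.02 (SE 0.14) over 12 libraries and 0.08 (SE 0.11) without female mutant 3. Markers of long-range Nos1 interneurons (Sst, Npy, Chodl and Tacr1) summed to 80.1 to 138 CPM in mutant and 104 to 134 CPM in wild-type libraries, with 2 of 4 lower and none at 0.

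Nos3, the endothelial synthase, was listed at 0 counts in female mutant 3, where the floor is 1.16 CPM. Its other mutant libraries had 5.46 to 7.35 CPM (median 6.65), against 5.32 to 8.09 CPM in wild type (median 6.42), and these ranges overlapped. The log2 fold change was -0.13 (SE 0.30), and 0.02 (SE 0.12) without female mutant 3. In males alone each of the 3 mutants was above each wild type, where 6.88% of tested genes were. In females the mutants had 7.35, 0 and 5.46 CPM, against 8.09, 6.63 and 8.01 CPM in wild type, and the groups overlapped. The log2 fold change was -0.51 (SE 0.40) in females, with female mutant 3 included, and 0.23 (SE 0.39) in males.

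Both kinase genes were somewhat higher in mutants on average, with overlapping groups. Prkg1, the cytosolic cGMP-dependent kinase, had 13.1, 21.3 and 14.8 CPM in female mutants, against 13.6, 11.3 and 9.67 CPM in female wild type. In males it had 13.5, 12.6 and 14.6 CPM in mutants, against 10.999, 12.97 and 12.5 CPM in wild type. Its log2 fold change was 0.29 (SE 0.13), 0.21 (SE 0.10) without female mutant 3, and 0.13 (SE 0.11) when the striatal term was added as well.

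Prkg2, the membrane-bound kinase, had 18.1, 36.0 and 20.7 CPM in female mutants, against 16.7, 14.7 and 13.4 CPM in female wild type. In males it had 15.2, 15.8 and 21.6 CPM in mutants, against 16.1, 15.9 and 19.1 CPM in wild type. Female mutants were all above female wild type, where 10.1% of tested genes were, and the male groups overlapped. Its log2 fold change was 0.34 (SE 0.18), 0.19 (SE 0.11) without female mutant 3, which held the 36.0 CPM, and 0.11 (SE 0.13) with the striatal term added.

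Of the phosphodiesterases, none had separate groups. Pde5a, which is specific for cGMP, had 13.1 to 25.7 CPM in mutants (median 14.9), against 13.7 to 16.4 CPM in wild type (median 14.9). The 25.7 CPM came from male mutant 10, and the other mutants reached 17.0 CPM. The genotype difference was 0.16 on the log2 scale (SE 0.15), 0.15 (SE 0.15) without female mutant 3, and -0.03 without male mutant 10. That library also held markers of the cerebellum: Gabra6 61.5 CPM, against at most 3.64 elsewhere, and Pcp2 14.7 CPM, against at most 0.888. The log2 fold change was above 0 for all 5 cerebellar markers (median 1.03, and 0 of 5 passed by edgeR), and their sum was 154 to 499 CPM in mutant and 155 to 184 CPM in wild-type libraries. Pcp2 and Gabra6 were at 0 in some libraries. The part of cerebellar RNA in the Pde5a value was not tested.

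Pde9a, which binds cGMP with high affinity, had 10.5 to 19.8 CPM in mutants (median 16.2), against 14.7 to 17.0 CPM in wild type (median 15.8). Its lowest and highest libraries were both mutants, and the log2 fold change was 0.01 (SE 0.11), or 0.07 (SE 0.08) without female mutant 3. Pde2a, which cGMP itself activates, had 0 to 1.88 CPM in mutants (median 0.891), against 0.966 to 1.21 CPM in wild type (median 1.15). These are 0 to 49 counts per library, of a gene that shares most of its exon bases with Gm45837, so its level is uncertain. The 0 was that of female mutant 3, under its floor of 1.16 CPM. The log2 fold change was -0.15 (SE 0.31), and -0.08 (SE 0.25) without female mutant 3.

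**Figure D3:**
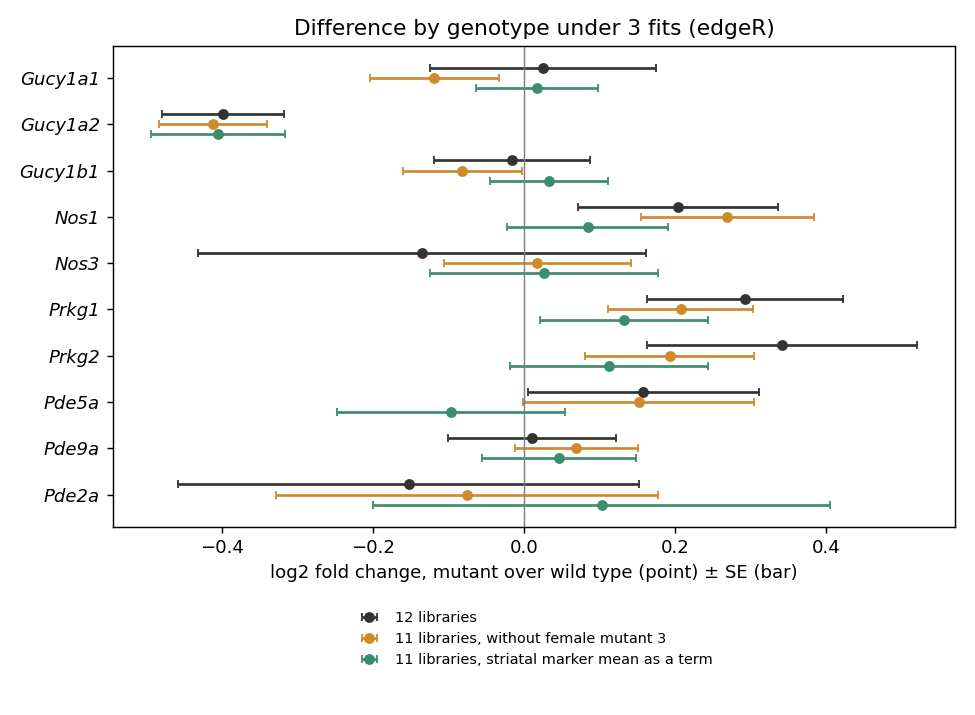
Log2 fold change, mutant over wild type, with its SE, for the 10 genes in edgeR fits of 12 libraries, of 11 without female mutant 3, and of those 11 with the striatal marker mean as a term. Gucy1a2 stays between -0.41 and -0.40 in these 3 fits, while Nos1 moves from 0.20 and 0.27 to 0.08.

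Sex was not used to choose the genes and was tested. No member passed the test of females against males: 0 of 10 passed by edgeR, against 0.0389% of tested genes, and 0 of 10 had an unadjusted p under 0.05, against 1.77%. DESeq2 (0.0666% of genes), limma-voom (0.0389%) and limma-voom with weights (0.0555%) called 0 of 10, as did edgeR without female mutant 3 (0.0433%). The log2 fold changes (female over male) ran from -0.19 for Pde2a and Nos1 to 0.16 for Gucy1b1, with adjusted p from 0.897 to 0.983 (edgeR). No member had separate female and male ranges, where 0.128% of genes had all females below and 0.0944% all females above (0.172% and 0.133% without female mutant 3). Gucy1b1 averaged 204 ± 26.5 CPM in females and 182 ± 19.2 CPM in males (SD, n = 6 each), and Nos1 averaged 93.5 ± 18.4 CPM in females and 107 ± 18.1 CPM in males. Without female mutant 3 the sex difference of Gucy1b1 was 0.10 (SE 0.08) and that of Nos1 -0.12 (SE 0.11).

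The difference between the sexes in the genotype effect was fitted too. It is built from the same mutant and wild-type values on which the genes were chosen, so its p-values are not independent of that choice. Gucy1a1 had a log2 fold change of 0.31 (SE 0.18) in females and -0.26 (SE 0.18) in males, and the difference was 0.56 (SE 0.26, edgeR adjusted p = 0.555). Gucy1b1 had 0.18 (SE 0.13) in females and -0.21 (SE 0.13) in males, with a difference of 0.39 (SE 0.18, edgeR adjusted p = 0.555). Without female mutant 3 these differences were 0.30 (SE 0.15) and 0.28 (SE 0.14). For Gucy1a2 the difference was -0.15 (SE 0.16, edgeR adjusted p = 0.685). By edgeR 0 of 10 members passed, where 0% of tested genes did, and 0 of 10 had an unadjusted p under 0.05, against 7.67%. DESeq2 (0.0222% of genes), limma-voom (0%) and limma-voom with weights (0.00555%) called 0 of 10, as did edgeR without female mutant 3 (0%), where Nos3 alone had an unadjusted p under 0.05, with a difference of -0.48 (SE 0.21, edgeR adjusted p = 0.465), against 10.6% of tested genes. A p that misses the threshold does not show that the sexes respond alike. The p-values measure the spread between mice of these groups.

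The members were also compared with each other and with the striatal marker mean across the 11 libraries without female mutant 3, in 45 relations of log2 CPM (100000 permutations each, 9 members without Pde2a). After adjustment 2 relations passed by Pearson's r. The permutations mixed genotypes and sexes, so these p-values also take in differences between the groups. They are not independent of the choice of genes, which was made on the genotype contrast. Each r after group means were subtracted is given without a p. Gucy1a1 and Gucy1b1, whose proteins form the alpha-1 beta-1 cyclase, moved together. Pearson's r was 0.899 (permutation p = 0.00054, adjusted 0.0243) and Spearman's rho 0.809 (permutation p = 0.00423, adjusted 0.0952). Pearson's r was 0.773 without the 2 libraries farthest from the median of Gucy1a1, and 0.906 after the 4 group means were subtracted. Male mutant 10, which held cerebellar markers, was 1 of the 2 left out. It was the lowest of the 11 libraries for both genes (83.4 CPM of Gucy1a1 and 151 CPM of Gucy1b1). The part of tissue make-up in this relation was not tested. Gucy1a2 passed with neither, with r of 0.332 to Gucy1a1 (rho 0.318, adjusted permutation p 0.537 and 0.695) and 0.167 to Gucy1b1 (rho 0.173, adjusted 0.811 and 0.865). Without the 2 libraries farthest from the median of Gucy1a2 these r were 0.132 and 0.637.

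Nos1 was low where striatal markers were high. Pearson's r was -0.822 (permutation p = 0.0020, adjusted 0.0450) and Spearman's rho -0.864 (permutation p = 0.0011, adjusted 0.0495). It was -0.901 without the 2 libraries farthest from the median of Nos1, and -0.729 after group means were subtracted. Male mutant 10, which held cerebellar markers, had the lowest striatal mean of the 11 libraries (4.27 log2 CPM) and 120.3 CPM of Nos1. The part of tissue make-up in this relation was not tested. Gucy1a1 and Gucy1b1 had r of 0.766 and 0.757 with the striatal mean, with an adjusted permutation p of 0.0590 for each and rho of 0.618 and 0.50. For Gucy1b1, r was 0.290 without male mutant 10 and female wild-type 5, its lowest and highest libraries, a choice that also narrows the range. For Gucy1a1, r was 0.604 without the 2 libraries farthest from its median. After group means were subtracted r was 0.829 for Gucy1a1 and 0.796 for Gucy1b1. Prkg1 and Prkg2 had an r of 0.771 (rho 0.655, adjusted permutation p 0.0577 and 0.261).

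**Figure D4:**
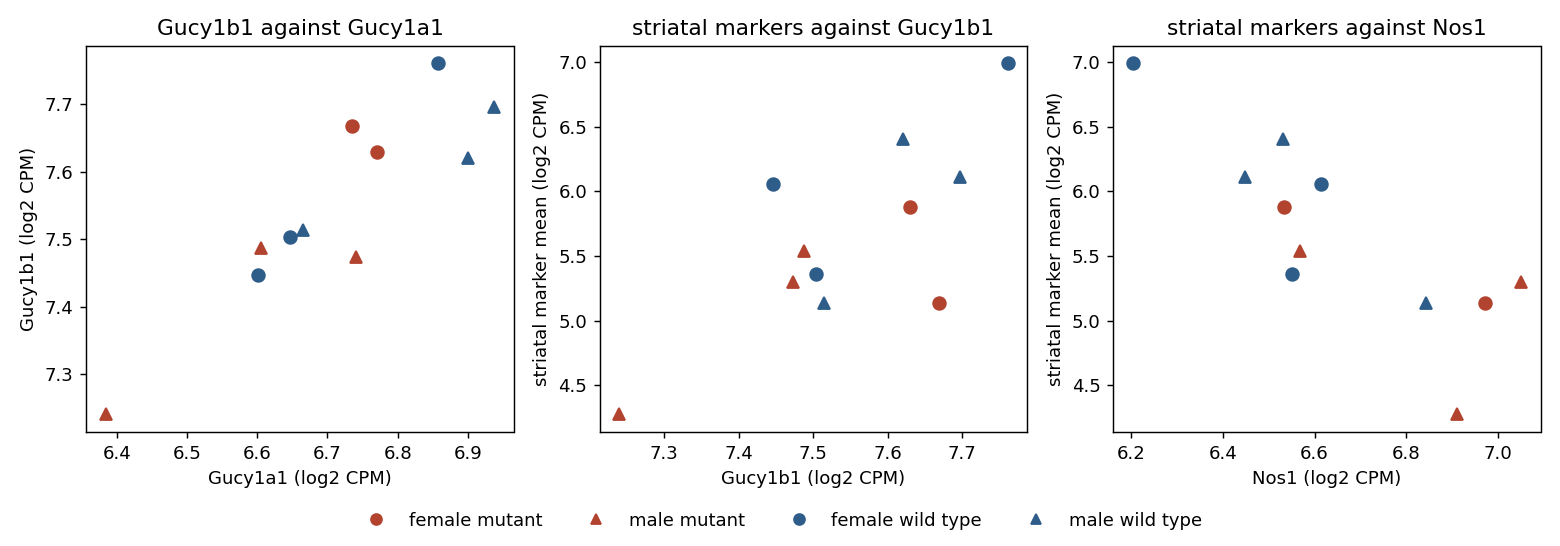
Log2 CPM of Gucy1b1 against Gucy1a1 (left), and the mean log2 CPM of 12 striatal markers against Gucy1b1 (middle) and Nos1 (right), in the 11 libraries without female mutant 3. Colour gives genotype and shape gives sex. The left panel rises (r = 0.899) and the right panel falls (r = -0.822). The middle panel rises with r = 0.757, and with r = 0.290 when its lowest and highest library are left out.

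The genes most like Gucy1a2 and Nos1 across the same 11 libraries, with group means subtracted, were ranked among 13179 genes of at least 1 CPM. For Gucy1a2 they were P2ry13, a purine receptor gene (r = 0.966), Utp23 (0.960), the RNA sensor gene Ddx58 (0.951), Txnl1 (0.938) and the endothelial phosphatase gene Ptprb (0.934). Their own log2 fold changes by genotype ran from -0.16 for P2ry13 to 0.17 for Txnl1, so none was as low in mutants as Gucy1a2. For Nos1 they were Sertm1 (0.980), the glypican gene Gpc4 (0.979), Cerkl (0.974), Chst9 (0.971) and the peptide gene Grp (0.968). The points share libraries, depth and tissue make-up, the median r was near 0 for both members, and these values are a description with no test. They were picked as the highest of 13179 r over 11 libraries, so high values come at least in part from that choice.

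Beyond the 10 members, 57 other genes of the pathway were listed in 5 role lists, all of them in the table, and 46 had enough counts to be tested. Of these, 22 had a log2 fold change above 0 and 24 below, and their median was -0.01, the same as over all tested genes. By edgeR 0 of 46 passed, against 0.00555% of tested genes, and 4 of 46 had an unadjusted p under 0.05, against 3.96% (edgeR adjusted p of at least 0.950). DESeq2 (0.161% of genes), limma-voom (0.00555%) and limma-voom with weights (0.122%) called 0 of 46. Gucy2d and Cnga1 had 0 counts in every library.

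The list of other cyclases and natriuretic peptides had 5 higher and 4 lower of 9 tested. Npr2, the receptor of C-type natriuretic peptide, averaged 33.3 ± 8.79 CPM in mutants and 34.0 ± 2.71 CPM in wild type (SD, n = 6 each). Npr3, the clearance receptor, averaged 22.3 ± 5.08 CPM in mutants and 19.3 ± 2.48 CPM in wild type. Without female mutant 3 the log2 fold change of Npr2 was 0.11 in place of -0.01, and that of Npr3 was 0.12 in place of 0.18. The list of synthase regulators and cofactor enzymes had 6 higher and 8 lower of 14. Dlg4, the postsynaptic scaffold that binds Nos1, averaged 541 ± 136 CPM in mutants and 638 ± 60.4 CPM in wild type, a log2 fold change of -0.24 (SE 0.17) that became -0.10 (SE 0.08) without female mutant 3. Dynll1, which binds the same synthase, averaged 143 ± 21.1 CPM in mutants and 140 ± 11.2 CPM in wild type, with a log2 fold change of 0.04, and 0.09 without female mutant 3.

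Ddah1, named after its values were seen, breaks down methylated arginines that inhibit the synthases. It had 115 to 135 CPM in mutant and 94.6 to 113 CPM in wild-type libraries, the only one of the 46 with all mutants above all wild types (0.144% of tested genes). Its log2 fold change was 0.22 (SE 0.07, edgeR adjusted p = 0.950), 0.22 (SE 0.05) without female mutant 3 and 0.29 (SE 0.08) with the striatal term. The sum of the astrocyte markers did not overlap between genotypes either, at 1202 to 1394 CPM in mutants and 1011 to 1171 CPM in wild type. Each marker taken alone did overlap, and their part in the Ddah1 value was not tested.

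The list of other cGMP phosphodiesterases had 5 higher and 4 lower of 9. Pde10a, an enzyme abundant in striatal neurons, averaged 248 ± 92.6 CPM in mutants and 418 ± 170.1 CPM in wild type. Its log2 fold change was -0.79 (SE 0.29, edgeR adjusted p = 0.950), and -0.90 (SE 0.28) without female mutant 3. With the striatal marker mean as a term it was -0.06 (SE 0.12) over 12 libraries and -0.18 (SE 0.06) without female mutant 3. Pde1b, named after its values were seen, averaged 142 ± 31.2 CPM in mutants and 230.0 ± 72.0 CPM in wild type, a log2 fold change of -0.68 (SE 0.20, edgeR adjusted p = 0.950), and -0.59 (SE 0.19) without female mutant 3. With the striatal term the Pde1b values were -0.25 (SE 0.15) over 12 libraries and -0.14 (SE 0.09) without female mutant 3. Pde1a, of the same calmodulin-dependent family, averaged 223 ± 58.5 CPM in mutants and 222 ± 9.19 CPM in wild type, with a log2 fold change of -0.01, and -0.12 without female mutant 3.

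The list of cGMP-gated channels and exporters had 3 higher and 3 lower of 6. Abcc5, an exporter of cyclic nucleotides, averaged 205 ± 31.9 CPM in mutants and 213 ± 16.3 CPM in wild type, with a log2 fold change of -0.05, and 0.02 without female mutant 3. The list of kinase substrates and partners had 3 higher and 5 lower of 8. Itpr1, the calcium release channel, averaged 724 ± 81.2 CPM in mutants and 790 ± 104 CPM in wild type, with a log2 fold change of -0.13, and -0.12 without female mutant 3. Kcnma1, the large-conductance potassium channel, averaged 523 ± 132 CPM in mutants and 479 ± 26.7 CPM in wild type. Female mutant 3 had 783 CPM of Kcnma1, against 426 to 526.2 CPM in the other mutants, and the gene's log2 fold change of 0.11 was -0.02 without that library.

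**Figure D5:**
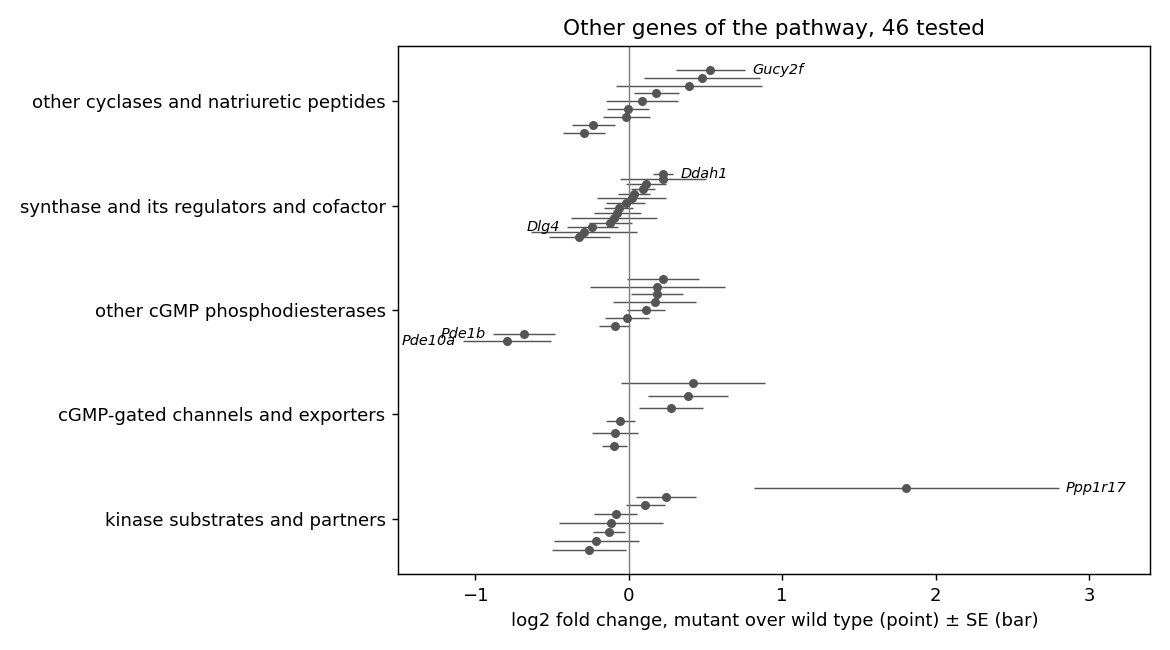
Log2 fold change, mutant over wild type, with its SE, for the 46 tested other genes of the pathway in 5 role lists (12 libraries, edgeR). Points lie on both sides of 0 in each list. Pde10a (-0.79) and Pde1b (-0.68) are the lowest, and Ppp1r17 (1.81) is the highest with the widest bar.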

How the data were processed

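Cortex mRNA of 12 mice was counted per gene in 12 libraries. The deposited values are raw read counts, whole numbers per gene and library, made by the authors with Trimmomatic 0.36, HISAT2 2.1.0 and HTSeq 0.11 on GRCm38.p6, with Cufflinks named without a version, per the submitters' processing notes. Annotation release and strand setting: not given in the sources used here. Of 54232 gene IDs, 54165 matched GENCODE M21 and 67 did not. Exon lengths and places are from that annotation.

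Genes were kept by filterByExpr over the 4 groups (18016 of 54232), scaled by TMM and tested with edgeR 4.0.16 (R 4.3.3) by its quasi-likelihood test, with sex and genotype as terms. The effects within each sex and their difference used 1 mean per group. Adjusted p is Benjamini-Hochberg's, taken over every tested gene, with a threshold of 0.05. SE is that of the log2 fold change, worked back from the edgeR test as the absolute log2 fold change over the square root of its F statistic. A prior count of 2 went into log2 CPM. The fitting was tested on simulated data. Totals of 3748515 to 32669138 counts set the precision, and floors and p-values were read as stated beside them.

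The members and lists were chosen with earlier results of these data known. Named genes are the 10 members, Tbl1xr1, the 2 of highest mean CPM in each of 5 role lists, the 5 most like Gucy1a2 and Nos1, and markers at 0 in any library. Others are said to be named after their values were seen. For 1 gene that this rule names, the result is not reported here. Alternatives were DESeq2 1.42.0, limma 3.58.1 voom with and without library weights, RLE scaling, library totals, no filter, 1 CPM in 6 libraries, striatal and mitochondrial terms, each sex alone, the longest transcript, and each library left out. The labels give no batch.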

Additional observations from a re-analysis of the deposited data

Results flagged for a closer look

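Within each genotype, every member's highest and lowest library was set against the others by Dixon's criterion, in 30 groups of libraries, and 6 flags were raised. Some groups were the mutants taken again without female mutant 3, so groups share libraries and 1 value can be flagged in 2 groups. Chance flags about 1 in 20 groups, but these groups are not independent, so nothing is read from the number of flags. Female mutant 3, the library with the fewest counts and the largest mitochondrial share, held 4 of the 6 flags. There Gucy1a1 had 177 CPM (83.4 to 109 in the other 5 mutants), Prkg1 had 21.3 CPM (12.6 to 14.8) and Prkg2 had 36.0 CPM (15.2 to 21.6). Nos3 was at 0 CPM there (5.46 to 7.35), under that library's floor of 1.16 CPM. Male mutant 10 held the other 2, both for the same value: Pde5a had 25.7 CPM there, against 13.1 to 17.0 CPM in the other 5 mutants. With female mutant 3 left out this was 25.7 CPM against 13.1 to 14.9 CPM in the other 4.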

How the results depend on the processing

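No member was called for genotype by edgeR, nor by the other settings tried except 3: DESeq2, limma-voom with library weights, and DESeq2 with female mutant 3 left out called 1 member each, Gucy1a2. Counts of calls with each library left out ranged from 0 to 0. The striatal term without female mutant 3 and the library weights without it were chosen after seeing the data, and each called 0 members. The Gucy1a2 difference was below 0 in 12 of 12 leave-outs and in 15 of 15 other alternatives (-0.48 to -0.33), and Nos1, Prkg1 and Prkg2 were above 0 in all of these. Every mutant library was below every wild-type library for Gucy1a2, so its sign in the leave-outs was settled beforehand. The list was chosen on this contrast, so nothing is read from these signs or calls. Gucy1a1, Gucy1b1, Nos3, Pde5a, Pde9a and Pde2a took both signs, with Gucy1a1 at 0.31 and Gucy1b1 at 0.18 in females alone and at -0.26 and -0.21 in males alone. The cause of these changes was not tested. No paired analysis was possible because no animal number occurs in more than 1 group. At the depth of female mutant 3, members near 1 CPM cannot be measured.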

Other observations

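Ppp1r17, a substrate of cGMP-dependent kinase known from cerebellar Purkinje cells, was named after its values were seen. It had 15.4 CPM in male mutant 10 and 0.251 to 2.32 CPM in the 11 other libraries. Its log2 fold change by genotype was 1.81 (SE 0.99) over 12 libraries, 1.77 (SE 0.99) without female mutant 3 and -0.30 (SE 1.04) with the striatal marker mean as a term. In male mutant 10 the cerebellar markers Car8 (143 CPM, against 10.3 to 20.9 elsewhere) and Cbln1 (101 CPM, against 6.24 to 19.9) were high as well, and the striatal marker sum of 456 CPM was the lowest of the 12 libraries. Gucy2f, a retinal guanylate cyclase gene also named after its values were seen, averaged 2.31 ± 0.36 CPM in mutants and 1.59 ± 0.717 CPM in wild type (SD, n = 6 each), with a log2 fold change of 0.53 (SE 0.23, edgeR adjusted p = 0.950), and 0.51 (SE 0.22) without female mutant 3.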
